A study of Mus musculus with 6 samples.

Results

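The 10 goblet cell genes described here are products and fate factors of the mucus-secreting cells of the gut epithelium, chosen by symbol: Atoh1, Spdef, Agr2, Muc2, Fcgbp, Clca1, Zg16, Tff3, Spink4 and Retnlb. All 10 were found among the 25067 rows of the deposited values, each on 1 row, and all 10 were above 0 in every library. Their RNA was measured in colonic organoids, which are epithelial cultures grown from isolated crypts of C57BL/6 mice 8 weeks of age. Both groups carried Prkci f/f Prkcz f/f (floxed alleles of both atypical protein kinases C, aPKCs) and Villin-CreERT2, a tamoxifen-inducible recombinase driven in intestinal epithelium, and both grew in medium with Noggin, R-spondin 1, WNT3A, EGF and B27. After passage they were kept for 3 days with 4-OH-Tamoxifen (4-OHT, 3 libraries) or with ethanol as vehicle (3 libraries). No library received 4-OHT without Cre or without floxed alleles, so aPKC loss, Cre activity and the drug cannot be told apart, and nothing in the labels says that the 3 libraries of a group came from separate mice, so p-values measure the spread between these libraries.

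Goblet cells arise from crypt progenitors in which low Notch signalling allows the transcription factor Atoh1 to set a secretory fate, after which Spdef drives goblet cell maturation. The mature cell fills granules with Muc2, the mucin that polymerises into the colonic mucus gel, together with proteins that fold, cross-link or cleave it and small peptides that act on the mucosa. Wnt-rich organoid medium favours progenitors, so goblet cells are usually a minority of such cultures.

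In 4-OHT organoids the goblet cell genes did not move as a block. Clca1, Spink4, Agr2, Tff3 and Spdef rose, with all 3 of their 4-OHT values above all 3 vehicle values, and Clca1 rose most, to 2.43-fold (95% confidence interval 1.81 to 3.25). Fcgbp, a major companion of Muc2 in mucus, fell to 0.801-fold, and Muc2 itself, Atoh1 and Retnlb did not pass the test. Zg16 passed it, with overlapping groups and a call that depended on single libraries. In all 6 of the 10 rose and 1 fell, where 22.7% of the 13210 tested rows rose and 21.0% fell (43.6% either way, limma-trend on log2 of the normalized count plus 1, Benjamini-Hochberg adjusted p-value under 0.05). The median log2 fold change of the 10 was 0.37, beside -0.0054 over all tested rows. In bulk RNA such as this, a change in the number of goblet cells and a change in RNA per goblet cell cannot be told apart.

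**Figure D1:**
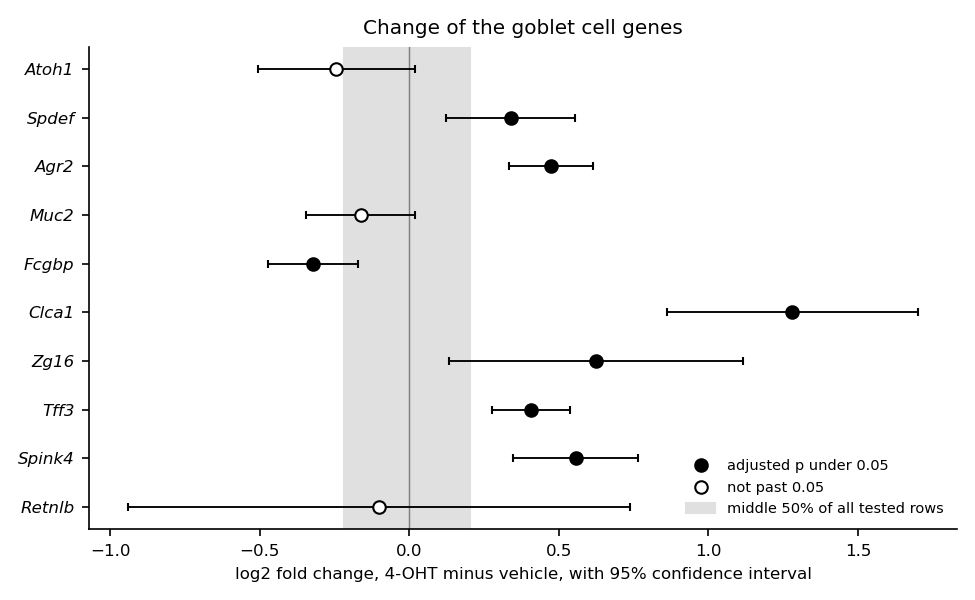
Log2 fold change of each goblet cell gene in 4-OHT against vehicle organoids (x axis), with bars for the 95% confidence interval of the limma fit, filled points for an adjusted p-value under 0.05 and open points for the others. The grey band is the interquartile range of all 13210 tested rows, from -0.22 to 0.20, and Clca1 at 1.28 lies farthest from it.

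The libraries held between 15804709 and 26957612 reads. Prkcz fell from 912 ± 37.9 (SD, n = 3) to 281 ± 13.6 (SD, n = 3) normalized counts, which checks the labels, and Prkci from 3520 ± 86.9 to 3021 ± 132 (SD, n = 3 each). The colonic gene Car1 had at least 4724 normalized counts in each library. The 4-OHT replicates 2 and 3 stood apart in a list of 10 Paneth cell and ileal genes, with 75.2 and 71.3 reads per 1000000 reads against 37.5 in 4-OHT replicate 1 and 43.0 to 53.7 with vehicle. Defa24, a Paneth cell defensin, had 145 and 176 reads there and at most 6 in the other 4 libraries, Fabp6, an ileal bile acid carrier, 120 and 34 against at most 4, and Igha, a plasma cell transcript, 135 and 40 against at most 1. Mmp7 and Lyz1 of the same list did not stand out in this way. Mmp7 had 539 and 487 normalized counts there, against 512 in 4-OHT replicate 1 and 568 to 682 with vehicle. Lyz1 had 290 and 275, against 182 in 4-OHT replicate 1 and 145 to 263 with vehicle. In those 2 libraries 0 of the 10 Paneth cell and ileal genes were at 0 reads, against 3 to 5 in the others. Small-intestinal tissue also holds goblet cells, so the log2 fold changes of the 10 goblet cell genes and the counts called in the 8 related lists were also computed on the 3 vehicle libraries against 4-OHT replicate 1 alone. The ratios, shares, levels per kilobase, marker lists and single genes of the lists were not. There 4 of the goblet cell genes rose (Clca1, Agr2, Tff3 and Spink4) and Fcgbp fell, with the lone library assumed to vary like the vehicle group.

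Of the 2 fate factors, Spdef rose and Atoh1 did not pass the test. Atoh1, the basic helix-loop-helix factor that starts secretory differentiation, had 172, 165 and 180.4 normalized counts in vehicle replicates 1, 2 and 3 and 156, 129.6 and 151 in 4-OHT replicates 1, 2 and 3. Each 4-OHT value was below each vehicle value, but the log2 fold change of -0.24 (SE 0.13) did not pass (limma adjusted p = 0.13), with a 95% confidence interval for the change of -29.6% to 1.28%. Between 125 and 232 reads per library lie behind these values. Spdef, the ETS factor of goblet cell maturation, had 215, 223 and 220.3 normalized counts with vehicle and 250.02, 297 and 288 with 4-OHT. Every 4-OHT value was above the vehicle values, whose coefficient of variation was 2.05%. Spdef rose by 0.34 on the log2 scale (SE 0.10, limma adjusted p = 0.012). Without 4-OHT replicate 2 the rise was 0.29 (limma adjusted p = 0.055), and in 4-OHT replicate 1 alone it was 0.19 (limma adjusted p = 0.36), so the call needed 4-OHT replicate 2, a library with Paneth cell and ileal transcripts, whose part in it was not tested.

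Agr2, the protein disulfide isomerase of the endoplasmic reticulum that Muc2 needs for its folding, had 1179, 1465 and 1272 normalized counts in the vehicle libraries and 1709.8, 1824 and 1887 in the 4-OHT libraries. The lowest 4-OHT value exceeded the highest vehicle value, and the rise was 0.47 on the log2 scale (SE 0.068, limma adjusted p = 1.1e-05). Muc2 had 2351, 3181 and 2317 normalized counts with vehicle and 2201, 2213 and 2539.6 with 4-OHT. Only vehicle replicate 2 stood above the other 5 libraries, and the groups overlapped. Muc2 did not pass at a log2 fold change of -0.16 (SE 0.087, adjusted p = 0.14 with limma), and the 95% confidence interval of its change was -21.2% to 1.38%. The log2 value was -0.01 without vehicle replicate 2 and -0.24 without vehicle replicate 3, where it passed (limma adjusted p = 0.048). A rise of Muc2 as large as that of Agr2 lies outside this interval.

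RefSeq start sites for 5 of the 10 genes were in the sequence table used (Atoh1, Spdef, Agr2, Muc2 and Fcgbp). The 250 bases before the start of 4 of them are shown because they stand before genes of the same secretory cell that rose (Agr2 and Spdef), fell (Fcgbp) or did not pass the test (Muc2). They are written 5′ to 3′ in the direction of the gene, on build GRCm38.p6. Capitals mark an E-box with the letters CAGCTG, the kind that Atoh1 and its partners can bind, or the letters TATAAA at any distance from the start. The windows of Agr2 and Spdef hold neither.
Agr2, chr12:35992675-35992924, plus strand: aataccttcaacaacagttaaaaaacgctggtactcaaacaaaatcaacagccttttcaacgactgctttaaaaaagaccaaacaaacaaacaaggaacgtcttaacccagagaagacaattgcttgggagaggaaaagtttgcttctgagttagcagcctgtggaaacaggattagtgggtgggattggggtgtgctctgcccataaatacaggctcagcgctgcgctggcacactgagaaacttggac
Spdef, chr17:27728952-27729201, minus strand: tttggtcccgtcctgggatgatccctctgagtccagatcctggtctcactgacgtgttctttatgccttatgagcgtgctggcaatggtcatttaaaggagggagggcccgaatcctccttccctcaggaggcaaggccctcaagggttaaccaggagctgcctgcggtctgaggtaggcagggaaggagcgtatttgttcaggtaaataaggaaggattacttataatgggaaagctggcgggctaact
Muc2, chr7:141690090-141690339, plus strand: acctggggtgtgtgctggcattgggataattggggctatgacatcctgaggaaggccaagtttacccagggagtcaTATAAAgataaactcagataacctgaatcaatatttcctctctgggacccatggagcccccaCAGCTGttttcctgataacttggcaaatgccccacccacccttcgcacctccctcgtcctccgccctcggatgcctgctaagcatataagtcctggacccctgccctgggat
Fcgbp, chr7:28070986-28071235, plus strand: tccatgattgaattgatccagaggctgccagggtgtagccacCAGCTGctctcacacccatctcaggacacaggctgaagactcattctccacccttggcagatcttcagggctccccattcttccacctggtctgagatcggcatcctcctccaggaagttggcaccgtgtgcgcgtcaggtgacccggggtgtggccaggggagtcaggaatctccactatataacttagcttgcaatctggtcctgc
Muc2 had CAGCTG starting 112 bases before its start site and Fcgbp 208 bases before it, while the windows of Agr2, Spdef and Atoh1 did not hold these letters, which stood in 13.0% of all 32851 promoter windows of this length. TATAAA, in 12.4% of all windows, started 174 bases before the start site of Muc2 and was not in the other 4 windows. Another E-box with the letters CAGATG (14.4% of all windows) and the ETS sequences CCGGAT (4.94%) and CCGGAA (3952 of the 32851) were in 0 of the 5 windows. The shorter GGAA and GGAT inside these ETS sequences were not searched, and GGAA stands in each window printed above. All letters searched were looked for on both strands, and CCGGAT and CCGGAA differ in the last letter only. A match describes letters in a short window, not a binding site.

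The proteins that build or process the gel beside Muc2 changed unequally. Fcgbp, a large mucin-like protein bound to Muc2 in mucus, had 2096, 2471 and 1923 normalized counts in the vehicle libraries and 1735, 1608 and 1832 in the 4-OHT libraries. Every 4-OHT value was lower than every vehicle value, by a narrow margin at 4-OHT replicate 3 against vehicle replicate 3. Fcgbp fell by 0.32 on the log2 scale (SE 0.072, limma adjusted p = 0.0012), and by 0.22 without vehicle replicate 2. A related transcript, 9530053A07Rik, shares 8.55% of the 50-base words of the Fcgbp transcript in the GENCODE vM21 annotation, and how shared reads were assigned is not given in the sources used here. Singled out after its values were seen, 9530053A07Rik rose from 43.0 ± 11.0 to 102 ± 8.68 normalized counts (SD, n = 3 each, limma adjusted p = 4.4e-05). Fcgbp went from 2163 ± 280.2 to 1725 ± 112.3 (SD, n = 3 each). Whether shared reads had a part in either change was not tested. The transcripts of the other 9 goblet cell genes shared 0.0% of such words with other genes, and no annotated exon of another gene overlapped any of the 10. For Muc2 the words came from an annotated fragment of 2926 bases only, so sharing elsewhere in Muc2 was not checked.

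Clca1, the secreted metalloprotease of goblet cells that cleaves Muc2 in the gel, had 126, 179 and 185 normalized counts with vehicle and 311, 306 and 634 with 4-OHT. All 4-OHT libraries were above all vehicle libraries, and 4-OHT replicate 3 was far above the other 2 of its group. The rise was 1.28 on the log2 scale (SE 0.20, limma adjusted p = 3.2e-05), 0.93 without 4-OHT replicate 3 and 0.95 in 4-OHT replicate 1 alone (limma adjusted p = 0.0012), and it placed Clca1 above 98.9% of all tested rows. The 4-OHT replicate 3 was also the library with the most reads of smooth muscle genes (8.18 per 1000000 reads, against 0.147 to 3.22 in the other 5) and of fibroblast genes (9.71, against 0.297 to 1.08), whose part in its Clca1 level was not tested. Zg16, a small lectin-like protein that binds gram-positive bacteria in the mucus, had 58.8, 164 and 115 normalized counts with vehicle and 158, 152 and 171 with 4-OHT. The 4-OHT values lay close together while the vehicle values spread widely, with a coefficient of variation of 46.7% against 5.87%. The rise of Zg16 was 0.62 on the log2 scale (SE 0.23, limma adjusted p = 0.037). Without vehicle replicate 1 it was 0.22 (limma adjusted p = 0.31), and without vehicle replicate 2 it was 0.95 (limma adjusted p = 0.0012). It did not pass with edgeR (adjusted p = 0.093) or DESeq2 (adjusted p = 0.35) on the whole reads, so the call depended on the library and the tool.

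**Figure D2:**
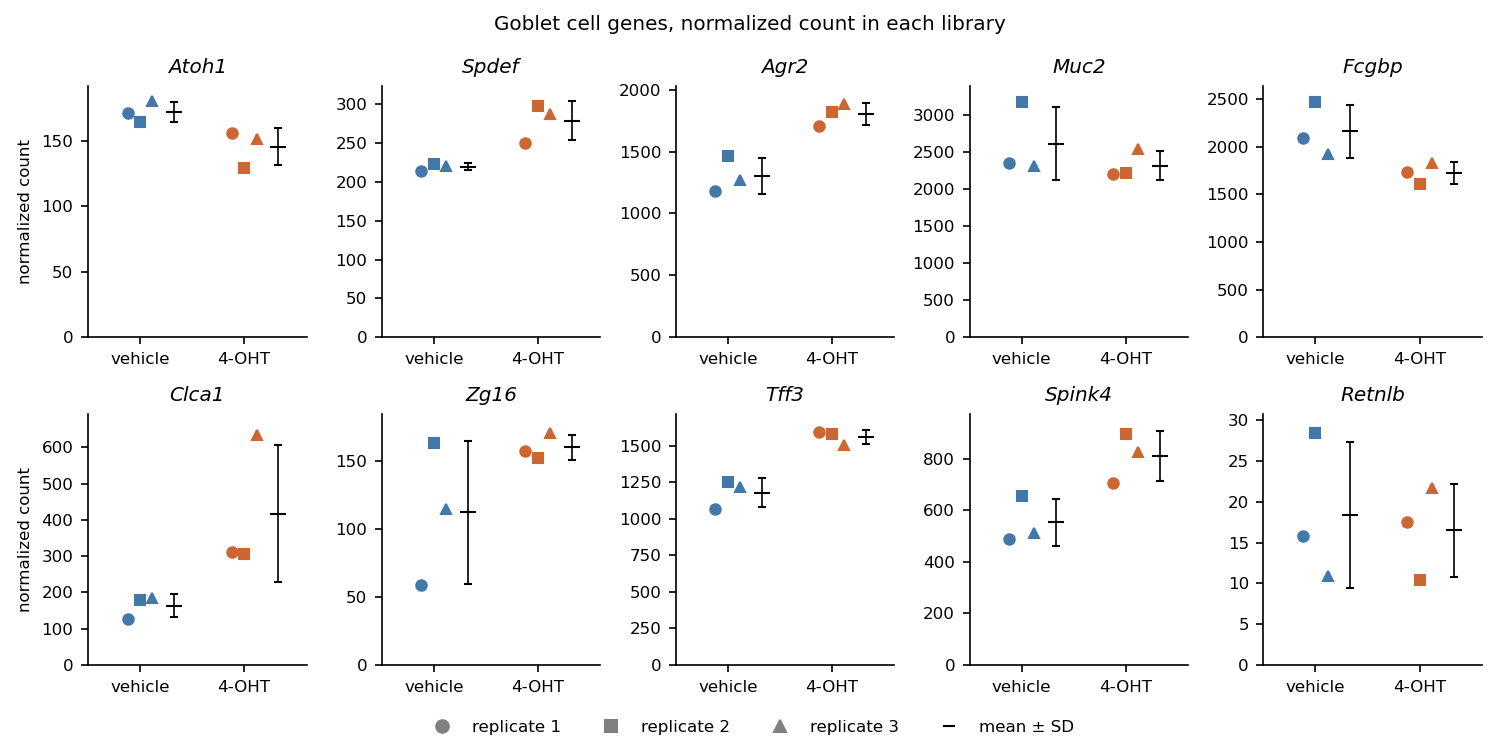
Normalized count (y axis, from 0) of each goblet cell gene in the 3 vehicle libraries (blue) and the 3 4-OHT libraries (orange), with circles, squares and triangles for replicates 1, 2 and 3 and the mean and SD in black. The groups are apart for Spdef, Agr2, Clca1, Tff3 and Spink4 (4-OHT higher) and for Atoh1 and Fcgbp (4-OHT lower), and overlap for Muc2, Zg16 and Retnlb.

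Of the small secreted peptides, 2 of 3 rose. Tff3, the trefoil peptide that promotes repair of the epithelial surface, had 1066, 1252 and 1222 normalized counts in the vehicle libraries and 1595, 1585 and 1505 in the 4-OHT libraries. The groups were well apart, and Tff3 rose by 0.41 on the log2 scale (SE 0.062, limma adjusted p = 2.5e-05). Spink4, a goblet cell peptide of the Kazal-type protease inhibitor family, had 489, 658 and 513 normalized counts with vehicle and 708, 898 and 826 with 4-OHT. Its groups were apart too, and it rose by 0.56 (SE 0.099, limma adjusted p = 1.3e-04). The rise of Spink4 was 0.37 in 4-OHT replicate 1 alone (limma adjusted p = 0.042), while that of Tff3 was 0.44 there. Retnlb, the resistin-like peptide that goblet cells secrete in response to bacteria and type 2 cytokines, had only 17, 40 and 9 reads with vehicle and 17, 10 and 19 with 4-OHT, or 15.9, 28.4 and 10.9 against 17.6, 10.4 and 21.6 normalized counts. Its groups overlapped, and the log2 fold change was -0.10 (SE 0.40, adjusted p = 0.86 with limma). The 95% confidence interval of the change was -47.8% to 66.6%, so changes within it are not excluded.

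For 7 of the 10 genes the groups did not overlap, with 4-OHT higher in 5 and lower in 2, where the groups did not overlap for 52.1% of all tested rows (26.8% higher and 25.3% lower). Vehicle replicate 2, the library with the most reads, held the highest vehicle value for 8 of the 10 (the exceptions were Clca1 and Atoh1), and vehicle replicate 1 the lowest for 6. In the 4-OHT group replicate 3 held the highest value for 6. The summed normalized count of the 10 genes was 7769, 9785 and 7959 in the vehicle libraries and 8840.4, 9023 and 9856 in the 4-OHT libraries. These sums overlapped, since vehicle replicate 2 exceeded 4-OHT replicates 1 and 2. The make-up of the sum differed between the groups. Muc2 made up between 29.1% and 32.5% of it with vehicle and between 24.5% and 25.8% with 4-OHT, and Fcgbp between 24.2% and 27.0% against 17.8% to 19.6%. Agr2 went the other way, from at most 16.0% with vehicle to at least 19.2% with 4-OHT.

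The same values were also read as the ratio of each gene to Muc2 within a library, which no scaling between libraries can move. The ratios are not separate evidence. All of them share Muc2, whose own log2 fold change of -0.16 did not pass, so a shift of Muc2 moves every ratio. Per Muc2 count, Agr2 stood at 0.502, 0.461 and 0.549 with vehicle and at 0.777, 0.824 and 0.743 with 4-OHT. Spink4 stood at 0.208, 0.207 and 0.222 against 0.322, 0.406 and 0.325. In both, the ratio was higher in every 4-OHT library than in any vehicle library. Of the 9 ratios, 6 were apart and higher with 4-OHT (those of Clca1, Zg16, Spink4, Agr2, Tff3 and Spdef), 0 were apart and lower, and 3 overlapped (those of Fcgbp, Atoh1 and Retnlb). For each of the 6 the exact two-sided permutation test gave p = 0.1, the smallest that this test can give with 3 against 3 libraries, so it cannot reach 0.05 for any of the ratios. The difference in the log2 ratio was largest for Clca1 at 1.44, followed by Zg16 at 0.79 and Spink4 at 0.72. Fcgbp stood at 0.892, 0.777 and 0.830 per Muc2 count with vehicle and at 0.788, 0.726 and 0.721 with 4-OHT, values that overlapped (difference in the log2 ratio -0.16, exact permutation p = 0.20).

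**Figure D3:**
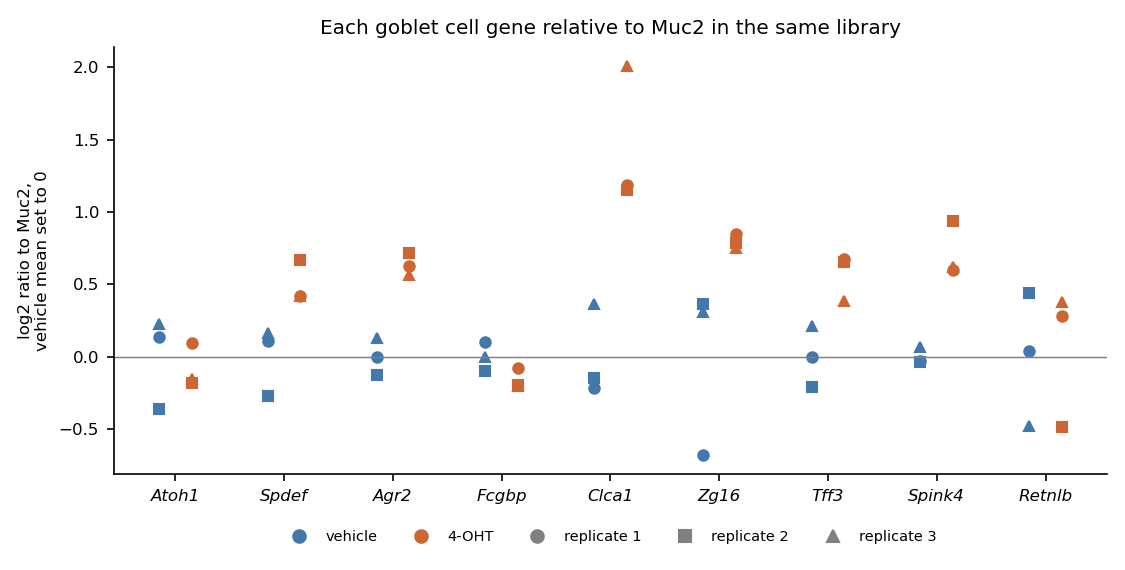
Log2 ratio of each goblet cell gene to Muc2 in the same library (y axis, with the vehicle mean set to 0), blue for vehicle and orange for 4-OHT, with circles, squares and triangles for replicates 1, 2 and 3. For Spdef, Agr2, Clca1, Zg16, Tff3 and Spink4 all orange points lie above all blue points, while those of Atoh1, Fcgbp and Retnlb overlap.

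Levels can be set between genes only per length, here as normalized counts per kilobase of the longest coding transcript in GENCODE vM21, which holds if reads came from the whole transcript (the library kit is not given in the sources used here). Muc2 was left out, because the longest coding transcript among its 8 annotated transcripts is a fragment of 2926 bases. In vehicle organoids Tff3 was highest at 2393 ± 202, followed by Agr2 at 1665 ± 186 and Spink4 at 1394 ± 230 (levels per kilobase, SD, n = 3 each), and the ranges of Agr2 and Spink4 overlapped. Fcgbp came next at 273 ± 35.3 and Zg16 at 156 ± 72.7, ahead of Spdef at 114 ± 2.34, Atoh1 at 81.2 ± 3.73, Clca1 at 44.7 ± 8.90 and Retnlb at 26.4 ± 12.9, and the ranges of Zg16 with Spdef and Atoh1, and of Clca1 with Retnlb, overlapped. In 4-OHT organoids Tff3 (3168 ± 100.2), Agr2 (2305 ± 115) and Spink4 (2042 ± 242) led again, and Agr2 and Spink4 overlapped again. Spdef stood at 145 ± 13.1 and Retnlb lowest at 23.7 ± 8.19. Clca1 moved from below Atoh1 in each vehicle library to above it in each 4-OHT library, at 114 ± 51.5 against 68.7 ± 6.66, and overlapped Spdef there. The ranges of Zg16 at 222 ± 13.0 and Fcgbp at 218 ± 14.2, apart in the vehicle libraries, overlapped in the 4-OHT libraries.

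The other genes of the goblet cell programme were read from lists of related genes. Among the transcription factors of the secretory lineage, 3 of 12 rose and 4 fell, a share of 58.3% called where 43.6% of all rows were. Sox4, a factor of secretory progenitors, rose most, from 7920.2 ± 321 to 12459 ± 661 normalized counts (SD, n = 3 each), by 0.65 on the log2 scale (limma adjusted p = 1.7e-09). Bhlha15 (Mist1), which builds the secretory apparatus, fell by 0.72 (limma adjusted p = 0.047). Foxa2, which takes part in goblet cell differentiation, fell by 0.55 (limma adjusted p = 0.014). For both genes the groups overlapped. Foxa1 and Foxa3, named here after their values were seen, went the other way with groups apart. They rose by 0.20 each (limma adjusted p = 0.0011 and 0.0086). Instead of 7 genes, 4 passed without vehicle replicate 2, and likewise without 4-OHT replicate 2.

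Notch signalling acts against Atoh1, through Hes1. Of 9 tested genes of this control 2 rose and 3 fell, a share of 55.6% called where 43.6% of all rows were. Hes1, the repressor of Atoh1, rose from 918 ± 52.7 to 1284 ± 60.4 normalized counts (SD, n = 3 each), by 0.48 on the log2 scale (limma adjusted p = 2.8e-06). The receptor Notch1 fell by 0.50 (limma adjusted p = 4.4e-06) and the ligand Dll4 by 0.49 (limma adjusted p = 0.0019). Not all ligands moved as Dll4 did: Jag1, named here after its values were seen, rose by 0.35 (limma adjusted p = 3.3e-05), and the receptor Notch2 did not pass (log2 fold change -0.08, limma adjusted p = 0.31).

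The genes of mucin folding, granules and export mostly rose, 7 of 11 tested, with 2 lower and a median log2 fold change of 0.26. The share called was 81.8%, where 43.6% of all rows were. Vamp8, the vesicle protein of regulated mucin release, rose from 1800.4 ± 69.2 to 2909.8 ± 101 normalized counts (SD, n = 3 each), by 0.69 on the log2 scale (limma adjusted p = 1.7e-09). Sytl2, a granule tethering protein, rose by 0.46 (limma adjusted p = 1.1e-06), about as much as Agr2. Nlrp6, an innate sensor that takes part in mucus granule exocytosis, fell by 1.23 (limma adjusted p = 3.9e-12), from between 2061 and 2215 normalized counts to between 874 and 963, the largest change in this list. Among other goblet cell markers 7 of 15 rose and 0 fell, a share of 46.7% called beside 43.6% of all rows. By direction, 22.7% of all rows rose and 21.0% fell. Capn9 rose by 1.41 from a low level of 9.44 ± 4.24 normalized counts, Ccl9 by 0.99 and Fer1l6 by 0.98 (limma adjusted p = 0.0074, 4.2e-05 and 5.3e-04). The vehicle mean of Capn9 was below the filter of 10, so Capn9 entered the test only through its 4-OHT values.

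Of 5 tested mucins other than Muc2, 2 fell and 1 rose, or 60% called beside 43.6% of all rows. All 3 are membrane-bound mucins: Muc4 fell by 0.67 on the log2 scale (limma adjusted p = 2.4e-07), Muc1 by 0.91 from 30.3 ± 8.26 normalized counts (limma adjusted p = 0.034), and Muc3 rose by 0.34 (limma adjusted p = 4.4e-04). In 4-OHT replicate 1 alone 1 mucin of the list passed. Muc5ac, the gastric gel mucin, was listed at 0 in 5 libraries and at 2.28 normalized counts in 4-OHT replicate 3. Among the relatives of the goblet cell genes 3 of 6 tested rose and 0 fell, where 22.7% of all rows rose and 21.0% fell. All 3 were of the Clca family, namely Clca3b by 0.49, Clca4a by 0.74 and Clca4b by 0.85 (limma adjusted p = 5.6e-07, 3.3e-04 and 0.0022), while Clca3a1 (log2 fold change -0.10) and Clca3a2 (-0.03) did not pass. Clca4a and Clca4b, and likewise Clca3a1 and Clca3a2, are close copies whose reads could be split between them, the Clca4b groups overlapped, and 1 gene of this list passed in 4-OHT replicate 1 alone. The Clca1 transcript shared 0 of its 3606 words of 50 bases with other annotated genes. Retnla, a relative of Retnlb, was listed at 0 in every library.

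Of the deep crypt secretory genes, which mark colonic cells related to goblet cells, Ang4, an antimicrobial ribonuclease, rose from 529 ± 71.1 to 985 ± 126 normalized counts (SD, n = 3 each), by 0.90 on the log2 scale (limma adjusted p = 2.1e-07), as 1 of 3 tested. That is a share of 33.3% called, where 43.6% of all rows were. Kit was lower in each 4-OHT library than in any vehicle library. It did not pass (log2 fold change -0.46, limma adjusted p = 0.092), and neither did Reg4 (0.26, limma adjusted p = 0.16). With any 1 of vehicle replicate 2, 4-OHT replicate 1 or 4-OHT replicate 3 left out, or with the replicate block, 2 of the 3 passed. That count takes genes in either direction. Among receptors and signal carriers of the cytokines that act on goblet cells, 2 of 6 rose and 2 fell, where 22.7% of all rows rose and 21.0% fell. Il10rb rose by 0.41, Il4ra by 0.26 (limma adjusted p = 2.9e-04 and 1.3e-04), and Stat6 fell by 0.13 (limma adjusted p = 0.031). Instead of 4 genes, 2 passed without vehicle replicate 2, and likewise without 4-OHT replicate 1.

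**Figure D4:**
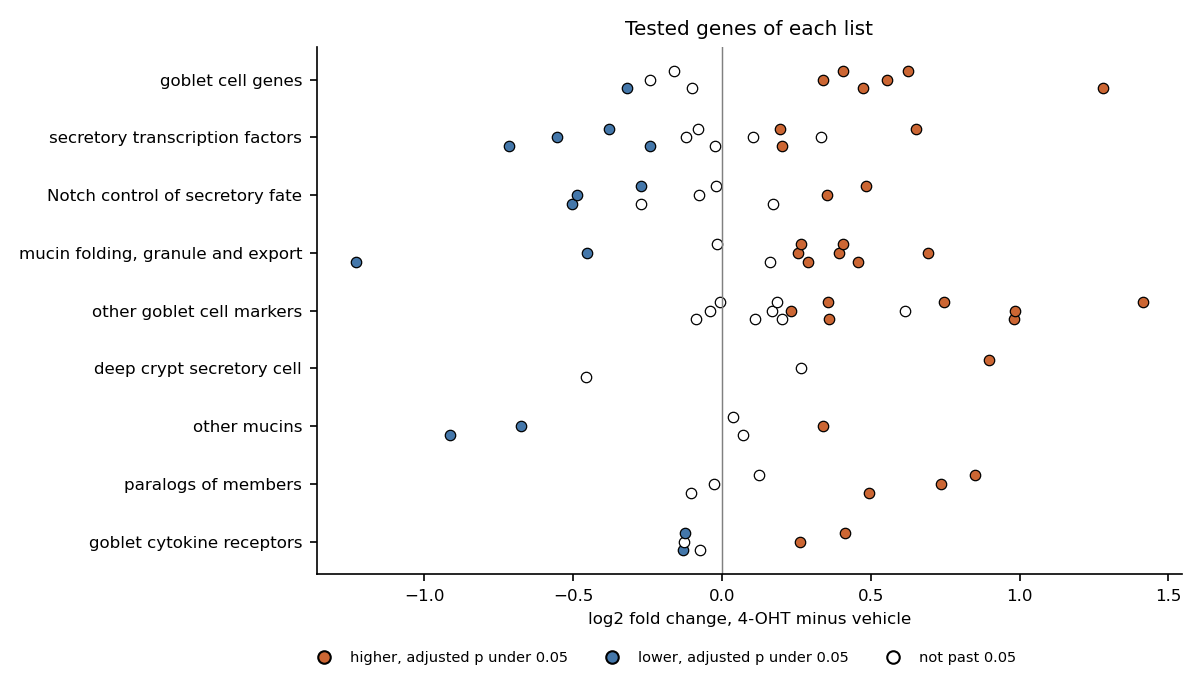
Log2 fold change (x axis) of every tested gene of the goblet cell set and of 8 related lists, 1 point per gene, with orange for genes that rose, blue for genes that fell and open points for those not past an adjusted p-value of 0.05. Height within a row only separates points. The goblet cell genes spread from -0.32 for Fcgbp to 1.28 for Clca1, and Nlrp6 at -1.23 lies lowest.

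Markers of the other cell types these cultures could hold moved as well, and their part in the results above was not tested. The counts below stand beside 22.7% of all tested rows that rose and 21.0% that fell. Of the enteroendocrine genes, another Atoh1-dependent lineage, 5 of 8 tested rose and 0 fell, with a summed level of 33.9 to 48.6 reads per 1000000 reads with vehicle and 52.1 to 59.9 with 4-OHT. Of the tuft cell genes 1 of 2 tested rose, with 9.49 to 12.3 against 12.3 to 14.4 reads per 1000000. The absorptive colonocyte genes rose in 4 of 9 (398 to 490.4 against 608 to 718). Among these 4, Car4 had 1, 2 and 2 reads with vehicle and passed the filter only through its 4-OHT values. The stem cell genes fell in 7 of 9 (756 to 773 against 509.5 to 559.8), and the proliferation genes fell in 10 of 10 (2062 to 2183 against 1097 to 1249). Of the 9 tested Paneth cell and ileal genes 6 rose and 1 fell (Mmp7). Those that rose were Defa21, Defa22, Defa24, Defa30, Mptx2 and Fabp6. Each had at most 6 reads in any vehicle library and in 4-OHT replicate 1. They passed the filter on low values only through 4-OHT replicates 2 and 3, so their count follows from the filter. Of 8 general epithelial genes 6 rose and 1 fell (20400 to 20890 against 26270 to 27910 reads per 1000000). Of the 6 fibroblast genes Col1a2, Col3a1, Dcn and Lum were at 0 reads in 4-OHT replicate 1 and with vehicle, and Col3a1 had 6 and 100 reads in 4-OHT replicates 2 and 3. Of the 7 immune and plasma cell genes Igkc and Jchain were at 0 reads in all but 4-OHT replicates 2 and 3. Immune and plasma cell genes came to 8.86 to 11.2 reads per 1000000 with vehicle and 6.70 to 18.2 with 4-OHT, and endothelial genes to at most 0.852. Of 2 tested immune and plasma cell genes 1 was higher (Igha) and 1 lower (Cd68). The single tested smooth muscle gene (Actg2) and fibroblast gene (Col3a1) were higher. Igha, Actg2 and Col3a1 passed the filter on low values only through 4-OHT libraries, so their being higher follows from the filter. Actg2 had 0, 1 and 2 reads with vehicle and 3, 8 and 46 with 4-OHT.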

How the data were processed

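RNA of 6 organoid libraries (3 vehicle, 3 4-OHT, grouped by title) was sequenced. The deposited signal is 1 normalized count per gene and library: the authors divided gene counts by 1 size factor per library, with no scaling to a fixed total and no length correction. The submitters' processing notes name STAR, DESeq2 and GRCm39 (mm39). The counting tool, annotation and library kit are not given in the sources used here. All values (100%) were whole multiples of 1 step per library within 0.1 reads, so whole reads were recovered.

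Of the rows, those whose normalized count averaged 10 or more (13210 of 25067, all 10 goblet cell genes included) were compared with limma-trend (limma 3.58.1, R 4.3.3) on log2(normalized count + 1), with no pairing and Benjamini-Hochberg adjustment over all rows. Fold changes on this scale understate changes of low genes. Alternatives were pseudocounts of 0.1 and 10, no filter, a minimum of 50, TMM, quantile normalization, a replicate block, edgeR 4.0.16 and DESeq2 1.42.0 on whole reads, each library left out, and 4-OHT replicate 1 alone. The tests were tested on simulated data. Libraries of a group differed by 3.55 to 6.41 times counting variance, so none is a copy. No interval here is a counting interval.

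Genes named are all 10, and up to 3 past the threshold per related list with the largest change. For some lists, genes that did not pass or went the other way are named as well. The genes and lists were chosen with earlier results of these data known. The ratios to Muc2, the promoter motifs, the per-length levels and the shared 50-base words were added after the values were seen. Transcript lengths (GENCODE vM21) and promoters (RefSeq) are of GRCm38, not the authors' build.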

Additional observations from a re-analysis of the deposited data

How the results depend on the processing

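The number of rows past the threshold was between 3848 and 5780 over 16 alternatives, 5765 in the comparison as reported, and that of goblet cell genes between 5 and 7. Leaving out single libraries, the goblet cell genes changed numbered between 5 and 7 (4 to 6 higher, and 1 lower or, without vehicle replicate 3, 2), all rows changed between 4946 and 5636, and the median log2 fold change of the 10 was between 0.27 and 0.40. That median moved by more than the spread between 4-OHT libraries (0.079) without vehicle replicate 1 (0.27) and in 4-OHT replicate 1 alone (0.28). Clca1, Agr2, Tff3, Spink4 and Fcgbp kept their direction and passed under all 16, with edgeR and DESeq2 included. Zg16 lost its call in 8 of 16 and Spdef in 2 of 16. Muc2 gained one without vehicle replicate 3, and Atoh1 had adjusted p-values from 0.096 to 0.57. Retnlb was between -0.40 and 0.25 with single libraries left out and reversed its sign without vehicle replicate 2 (0.25), without 4-OHT replicate 2 (0.18) and in 4-OHT replicate 1 alone (0.040), and gave no value with a minimum of 50. For these differences the cause was not tested. No alternative moved the median of all rows by 0.1.

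Libraries of the same number share only a number: their deviations from the group means correlated at -0.0075, 0.030 and -0.020, so nothing shows pairing. With the replicate block 5637 rows changed and 7 goblet cell genes, with a median of 0.37. Counting error is largest for Retnlb, which had the fewest reads of the 10 (9 to 40 per library). The coefficient of variation of Zg16 was 46.7% with vehicle (63 to 231 reads) and 5.87% with 4-OHT (147 to 153 reads).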
